A study of Homo sapiens with 4 samples.

Results

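XPO1 encodes exportin 1, also called CRM1, and its pre-mRNA gave rise to a large family of circular RNAs in the libraries described here. The members are the rows of the deposited count table that name XPO1 among their overlapping genes and are not of the antisense type. There were 164 such rows of 211599 in all, and each row is 1 back-splice position. Of these, 145 had at least 1 count and 19 had 0 counts in every library. XPO1 was chosen by its measured values in these 4 libraries, where its circular counts were higher in the knockdowns, so all knockdown and control values of XPO1 are given as a description, and nothing is read from a test of them.

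Exportin 1 is the main nuclear export receptor for proteins that carry a leucine-rich export signal. It binds its cargo together with RanGTP in the nucleus, passes through the nuclear pore and releases the cargo when GTP is hydrolysed in the cytoplasm. A circular RNA forms when the spliceosome joins the donor site of a later exon back to the acceptor site of an earlier exon of the same transcript. The product has no free ends, and which circles a gene makes is known to depend on its introns and on proteins that bind them.

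The cells were a radiation-resistant derivative of MDA-MB-468, a breast cancer line, that had received a total of 50 Gy. All 4 libraries share that background, and no library of the unirradiated parental cells is part of the comparison. The controls (n = 2) carried a control hairpin and the knockdowns (n = 2) a hairpin that stably silences HNRNPL, a splicing regulator that binds RNA. The labels name 1 hairpin sequence, so an effect of that sequence and an effect of losing HNRNPL cannot be told apart. The labels call the libraries biological replicates and say nothing of separate infections. Circular RNA was read on the nanopore platform after reverse transcription by Induro, which can copy a circle several times over, and after phi29 amplification.

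The libraries held 472428, 556578, 282737 and 390547 counts, in the order control 1, control 2, knockdown 1 and knockdown 2, which is the order of all values given per library here. A count of 0 allows up to 3 counts, or 0.635, 0.539, 1.06 and 0.768 per 100000 counts. Control 1 stood apart, with 70.9% of its counts in exon circles against 84.9% to 85.7% in the other libraries, and with 19.7% in intron circles against 9.93% to 10.6%. Of the markers of the line, circular reads of the epithelial genes EPCAM and CDH1 and of EGFR were found in every library, and those of KRT8, KRT18, PTPRC, PECAM1, COL1A1 and PGR in none. Those of ESR1, the estrogen receptor listed as a luminal marker, had 13, 5, 3 and 1 counts. A gene that makes no circle gives no value in such data, so a marker at 0 says nothing of the label.

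The XPO1 circles had 8354 counts of 1702290. Their exon structures shared 24 blocks on the minus strand of chromosome 2, from chr2:61537562-61537668 at the 5′ end of the transcript to chr2:61481185-61481281 (coordinates of the deposited table, build GRCh38.p14). The RefSeq span of XPO1 in that build is chr2:61477849-61538612. The blocks are numbered 1 to 24 in the direction of transcription, and these numbers come from the circles and are not exon numbers of an annotation. A circle of blocks 17 to 23 runs from the acceptor site of block 17 to the donor site of block 23. Of the 145 detected circles, 92 had both ends on edges of these blocks, and these held 97.5% of all XPO1 counts.

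The number of different circles was large. With at least 10 counts over the 4 libraries there were 61 XPO1 circles, and 60 of them were exon circles that named no other gene. Only 3 of 3194 host genes had more such circles, and the median host gene had 2. This filter adds up the 4 libraries, and XPO1 was chosen for its higher knockdown counts. Some circles pass it mainly by those counts, such as blocks 10 to 17 with 0, 2, 7 and 7, so nothing is read from this rank. The back splices used 19 different acceptor blocks and 18 different donor blocks. At the other end of the range, 84 detected circles had fewer than 10 counts, and 44 were seen in 1 library. Counted with or without an added asterisk, AG-GT was the splice motif of 148 of the 164 rows. The same held for 60 of the 61 circles with at least 10 counts. The asterisk is not explained in the sources used here. It marks, among others, chr2:61481197-61534654, chr2:61481197-61534678 and chr2:61478479-61537715.

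The XPO1 circles covered a wide range of lengths. For the 39 circles with at least 40 counts, the length of the isoform listed first ran from 371 to 3186 nt, with a median of 1432 nt and 10 blocks. Over the 4564 exon circles of all genes with at least 40 counts, the medians were 1185 nt and 6 blocks. The 40 counts add up the 4 libraries, and some of the 39 pass mainly by their knockdown counts. Blocks 7 to 17, with 1, 2, 14 and 29 counts, are an example, so nothing is read from this difference. In 73 of the 92 circles with both ends on block edges, the isoform listed first was the uninterrupted run of all blocks between its ends, and these circles held 81.0% of the 8144 counts of the 92. In 2 circles the isoform listed first was made of shared blocks alone and skipped a block. Skips in first isoforms that hold an unshared block, and in isoforms listed later, were not counted. Some later isoforms made of shared blocks alone do skip blocks. For blocks 13 to 23 the isoform listed first has 11 blocks and the other has 8. For blocks 7 to 20 these numbers are 14 and 8. The table lists more than 1 isoform for 46 XPO1 circles and up to 5 for a single circle, but gives no count per isoform.

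**Figure D1:**
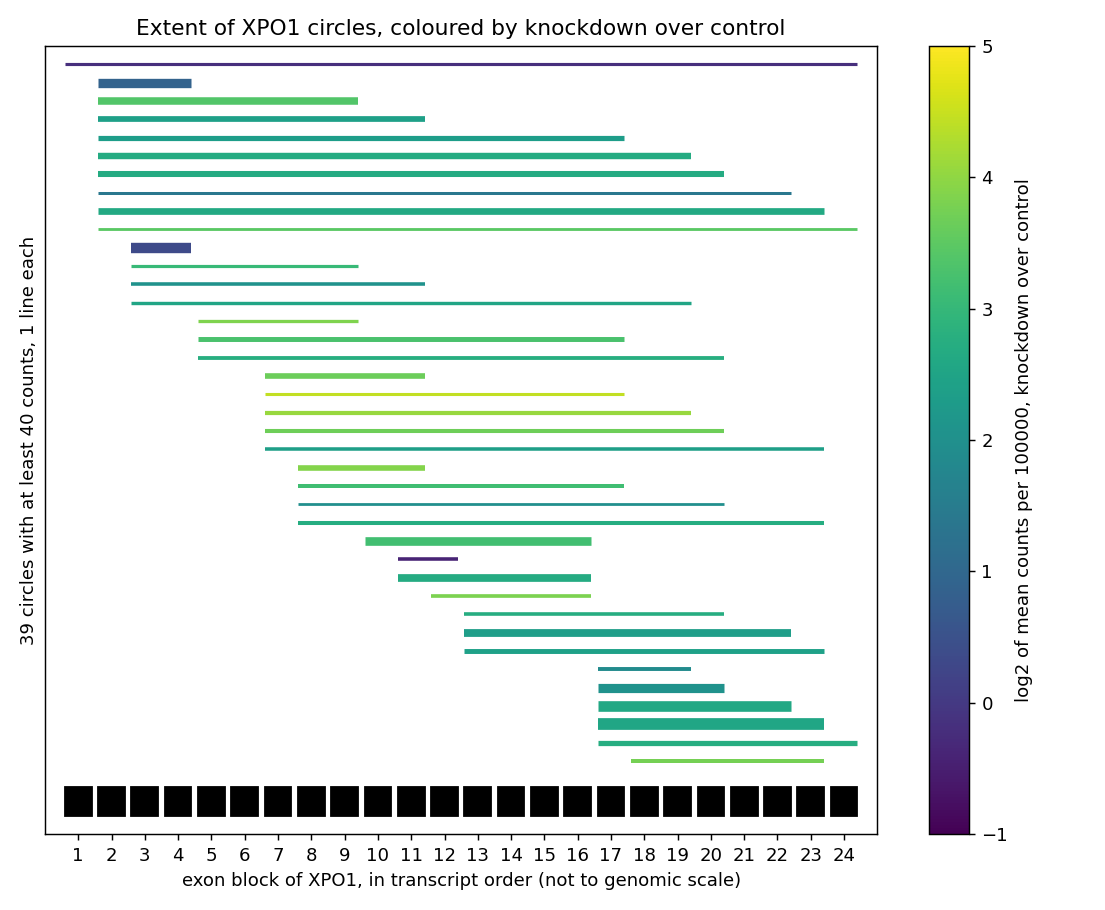
Extent of the 39 XPO1 circles with at least 40 counts, 1 horizontal line each, over the 24 exon blocks in the order of transcription (x axis, not to genomic scale). The colour gives the log2 ratio of mean counts per 100000, knockdown over control, and a thicker line has more counts. The short lines at blocks 2 to 4 and 3 to 4 are thick and dark, with ratios of 1.85 and 1.27, while most lines that end past block 4 are blue-green to yellow, with a median ratio of 6.73 for the 25 circles within blocks 5 to 24.

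Together the XPO1 circles had 629, 1559, 2389 and 3777 counts, or 133, 280, 845 and 967 per 100000 counts of each library. Both knockdown libraries lay above both controls, and the controls differed from each other by more than the knockdowns did. The means were 207 ± 104 in controls and 906 ± 86.4 in knockdowns (SD, n = 2 each), a ratio of 4.38. The ratio was 3.23 without control 1 and 6.80 without control 2. On the log2 scale, edgeR's fit over 5911 host genes gave XPO1 a fold change of 2.39 ± 0.66 (SE), where the median host gene had -0.27. With scaling to library size alone the median host gene had -0.67 and XPO1 2.08, so its distance from the median changed little. A change in the circles and a change in the amount of XPO1 transcript cannot be told apart here, because linear RNA was not analysed here.

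Of the 61 XPO1 circles that entered the fit over 21576 circles, 55 had a positive log2 fold change and 6 a negative one. Their median was 2.69, against -0.39 over all circles tested. The fit called 0 XPO1 circles at an adjusted p of 0.05 (edgeR's quasi-likelihood test, Benjamini-Hochberg over all circles), and 0% of all circles were called in either direction. At an unadjusted p under 0.05 there were 46 XPO1 circles and 13.4% of all circles, and DESeq2 called 35 XPO1 circles, all higher, against 4.33% of all circles called higher and 0.7% lower. Leaving out control 1 gave 47 called of 58 and leaving out control 2 gave 53 of 56, 1 lower in each. In the same fits 14.7% and 20.4% of all circles were called higher, and 13.4% and 22.8% lower. The contrast is the one XPO1 was chosen for, so nothing is read from these counts.

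Per circle, 36 of the 39 with at least 40 counts were higher in both knockdown libraries than in both controls, 0 were lower in both, and 3 overlapped. Over all 4944 circles with at least 40 counts, 29.7% were higher in this sense and 28.9% lower. The 40 counts are those of the 4 libraries together, so some of the 39 pass mainly by their knockdown counts. Blocks 12 to 16, with 0, 6, 19 and 33 counts, are an example, and nothing is read from the tally or from the ratios below. The ratio of group means ran from 0.751 to 21.7 among the 39, with a median of 6.39. In 5 of the 39 the control mean lay under 0.587 per 100000, the mean that 3 counts in each control would give, so their ratios, all of 11.1 or more, are loose, and the highest of the other 34 was 14.9. Of the 39, 32 were at least 4-fold higher. Without control 1 the median was 4.19, 23 were at least 4-fold higher and 3 were under 1. The ratios showed little order by length. Across the 39 circles, which share exons and libraries, Spearman's rho of the log2 ratio was -0.16 with length and -0.01 with the number of blocks.

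The circle with the most counts was chr2:61482380-61490776, which holds blocks 17 to 23 and is 1085 nt long. It had 75, 208, 409 and 646 counts, which is 26.6 ± 15.2 per 100000 (SD, n = 2) for the controls against 155 ± 14.7 (SD, n = 2) for the knockdowns, a ratio of 5.82. Both knockdowns lay above both controls, and the ratio was 4.15 without control 1 and 9.77 without control 2. It also took a larger part of all XPO1 counts in the knockdowns, from 11.9% and 13.3% of the control counts to 17.1% in either knockdown. Only 1 isoform was listed for it.

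A pair of circles shared its acceptor at block 17. That of blocks 17 to 22 (chr2:61482957-61490776, 925 nt) had 45, 135, 275 and 415 counts and a ratio of 6.02. That of blocks 17 to 20 (chr2:61485768-61490776, 621 nt) had 44, 92, 151 and 210 counts and a ratio of 4.15. Neither overlapped between the groups. Without control 1 their ratios were 4.195 and 3.24, and without control 2 they were 10.7 and 5.75.

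The middle of the gene gave 3 circles among the 12 with the most counts. The circle of blocks 10 to 16 (chr2:61492035-61497007, 1128 nt) had 9, 51, 123 and 221 counts and a ratio of 9.04. A shorter circle of blocks 11 to 16 (chr2:61492035-61495613, 999 nt) ends at the same donor and had 5, 51, 80 and 145 counts, with a ratio of 6.40. Further along, the circle of blocks 13 to 22 (chr2:61482957-61493053, 1567 nt) had 13, 55, 79 and 142 counts and a ratio of 5.09. All 3 were higher in both knockdowns than in both controls, but control 1 was low in each, and the ratios depend on it. They were 5.46, 3.57 and 3.25 without control 1, and 26.3, 30.9 and 11.7 without control 2.

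Circles that start at block 2 made up the rest of the 12, apart from those that end at block 4. Blocks 2 to 9 (chr2:61498673-61533903, 769 nt) had 10, 24, 86 and 141 counts and the highest ratio of the 12, 10.3. A circle of blocks 2 to 23 (chr2:61482380-61533903) holds 22 blocks and 2982 nt, and it had 11, 28, 68 and 83 counts with a ratio of 6.16. The circles of blocks 2 to 19 (chr2:61488165-61533903, 2323 nt) and 2 to 20 (chr2:61485768-61533903, 2518 nt) had 7, 27, 53 and 83 counts and 6, 23, 47 and 70 counts. Their ratios were 6.32 and 6.39. In these 4 circles both knockdowns again lay above both controls, and the size of the ratio again depended on control 1. Without it the ratios were 7.71, 4.503, 4.12 and 4.18, and without control 2 they were 15.7, 9.73, 13.5 and 13.6, in the order given. Among all 8 circles with at least 40 counts that start at block 2 and end past block 4, the ratios ran from 2.59 to 11.1.

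**Figure D2:**
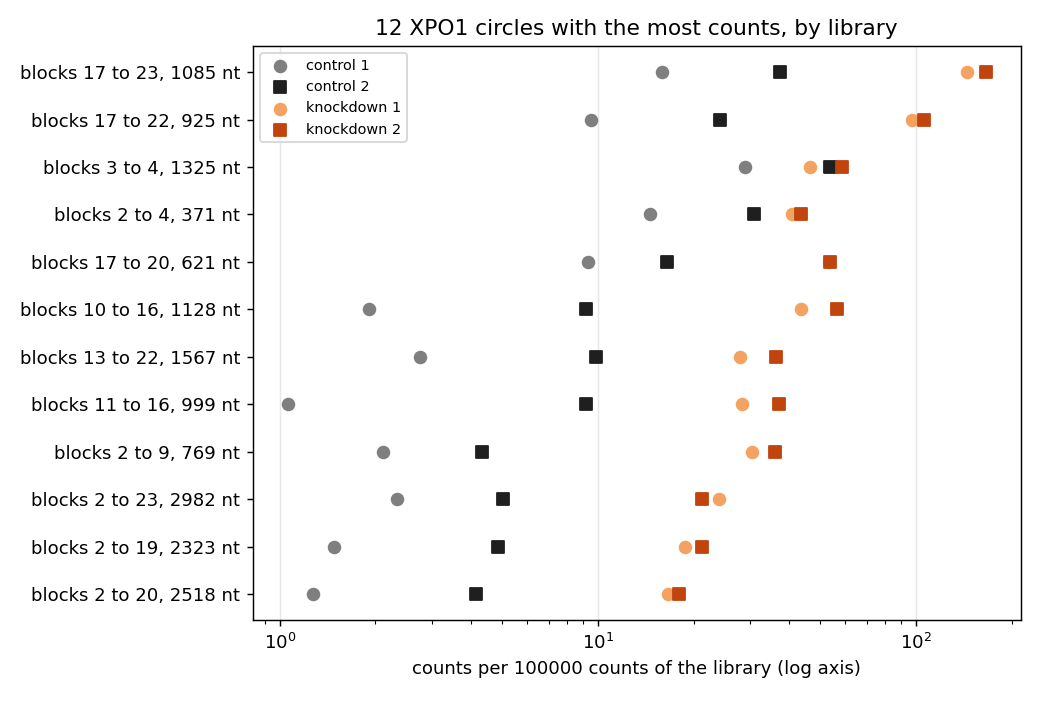
Counts per 100000 counts of the library (x axis, log scale) for the 12 XPO1 circles with the most counts, 1 row each, named by their blocks and length. Each point is 1 library, and the points of the knockdowns coincide for blocks 17 to 20. The 4 points lie close together for blocks 3 to 4, where control 2 falls between the knockdowns, and the controls lie to the left of the knockdowns in the other 11 circles.

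The 2 abundant circles that end at block 4 had lower ratios. The circle of blocks 3 to 4 (chr2:61522611-61526521) had 137, 298, 131 and 228 counts, which is 41.3 ± 17.4 per 100000 (SD, n = 2) for the controls against 52.4 ± 8.52 (SD, n = 2) for the knockdowns. The groups overlapped, with a ratio of 1.27, and the direction depended on control 1: the ratio was 0.978 without it and 1.81 without control 2. It was the most abundant XPO1 circle in both controls. It held 21.8% and 19.1% of their XPO1 counts, but 5.48% and 6.04% in the knockdowns.

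The circle of blocks 2 to 4 (chr2:61522611-61533903) had 69, 172, 115 and 170 counts, or 22.8 ± 11.5 and 42.1 ± 2.02 per 100000 (SD, n = 2 each). Both knockdowns lay above both controls, with a ratio of 1.85, which was 1.36 without control 1 and 2.88 without control 2. Its part of the XPO1 counts was 10.97%, 11.03%, 4.81% and 4.501%, lower in both knockdowns.

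Circles with donor block 4 and acceptor block 2 or 3 were taken as a class after their values were seen. They had 43.6, 84.4, 87.0 and 102 counts per 100000. Of the XPO1 counts of each library they made up 32.8%, 30.1%, 10.3% and 10.5%, or 31.4 ± 1.84% in controls against 10.4 ± 0.170% in knockdowns (SD, n = 2 each). In this share control 1 lay near control 2. The ratio of the class was 1.48, and 1.12 or 2.17 without control 1 or 2. All other XPO1 circles together had 89.5, 196, 758 and 865 counts per 100000, a ratio of 5.69, and 4.15 or 9.06 without control 1 or 2. The class was set with the low ratios of its circles known, so nothing is read from the distance between these ratios.

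Circles that start at block 2, 3 or 4, as that class does, but end past block 4 had 14.4, 37.7, 155 and 166 counts per 100000, a ratio of 6.17 (4.26 or 11.2 without control 1 or 2). Circles that lie wholly within blocks 5 to 24 had 59.5, 144, 587 and 683, a ratio of 6.23 (4.40 or 10.7 without control 1 or 2). In both classes the knockdowns lay above the controls. The second class grew from 44.7% and 51.5% of XPO1 counts in the controls to 69.5% and 70.6% in the knockdowns. The counts of intron rows were few, with 24, 10, 11 and 13, and a ratio of 1.05 per 100000 whose direction depended on the controls, at 2.01 without control 1 and 0.711 without control 2. Circles with an end off the block edges had 71, 48, 35 and 56 counts, and here control 1, the library with the largest share of intron circles, was the highest. The part that this library's content plays in the shares was not tested.

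**Figure D3:**
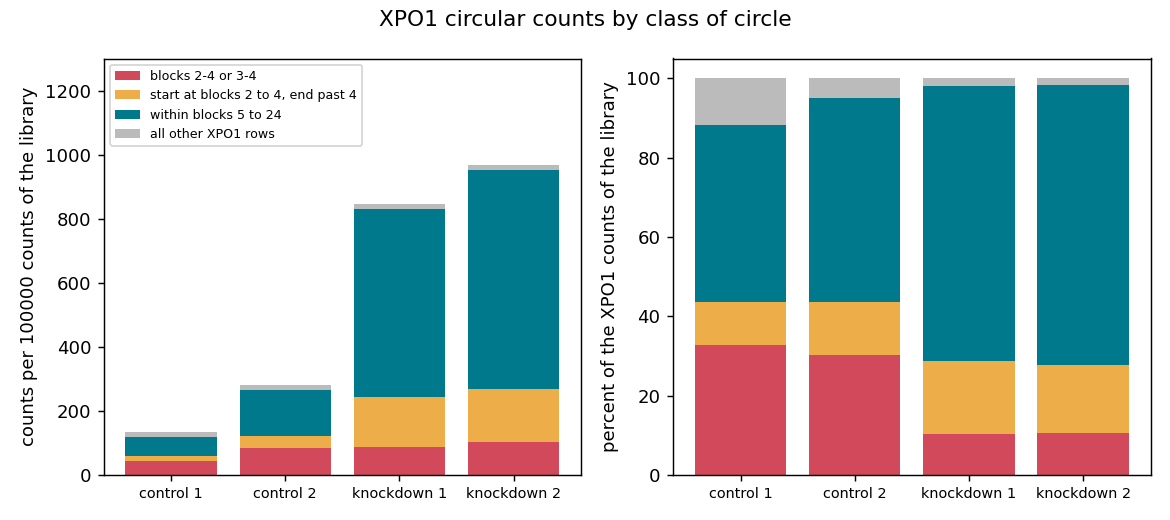
XPO1 counts by class of circle in the 4 libraries, as counts per 100000 counts of the library (left) and as percent of the XPO1 counts of the library (right). The segment of blocks 2-4 or 3-4 has between 43.6 and 102 counts per 100000 in all libraries. Its share is 32.8% and 30.1% for the controls against 10.3% and 10.5% for the knockdowns. That class was set after the values were seen.

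The circles that end at block 4 also differed in structure. The intron between blocks 3 and 4, chr2:61522684-61526419, is 3736 nt long. All 9 isoforms listed for these 2 circles hold sequence of it. The isoform listed first for blocks 2 to 4 (371 nt) has an extra block of 64 nt, chr2:61525270-61525333, between blocks 3 and 4, and that block is listed in no XPO1 circle other than these 2. The isoform listed first for blocks 3 to 4 (1325 nt) joins block 4 to chr2:61525270-61526521, a block of 1252 nt that is block 3 with the adjoining intron sequence. Other listed isoforms keep the whole intron as a single block of 3911 nt, or carry a further block of 68 nt (chr2:61525492-61525559) or 404 nt (chr2:61525492-61525895).

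Such sequence was also listed for some circles that cross the same intron and end past block 4. There were 21 detected circles of that kind with 1406 counts, and 5 of them, with 406 counts, list sequence of the intron in any isoform. More generally, circles with both ends on block edges whose first isoform has a block outside the shared set had 50.8, 91.6, 111 and 123 counts per 100000, a ratio of 1.64 (1.27 or 2.30 without control 1 or 2). Those made of shared blocks alone had 67.3, 180, 722 and 830, a ratio of 6.28 (4.31 or 11.5 without control 1 or 2). The circles that end at block 4 hold most of the counts of the first kind, so these are not separate observations. One other unshared block was frequent: an extended form of block 18, chr2:61488588-61489410, is listed among the isoforms of 7 circles that have 1600 counts together.

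Of the ratios at the ends of the range, all but that of blocks 3 to 4 belong to circles with fewer counts. The highest among the 39 was that of blocks 7 to 17 (chr2:61490642-61499894), with 1, 2, 14 and 29 counts. Its ratio was 21.7 (17.2 or 29.2 without control 1 or 2), and pooling the libraries of a group gave 21.9 with an exact 95% binomial interval of 7.01 to 110 that covers counting error only. The circle of blocks 7 to 19 (chr2:61488165-61499894) had 0, 6, 17 and 48 counts and a ratio of 16.98, with an interval of 7.21 to 46.8 on the pooled counts. Without control 1 that ratio was 8.49, and without control 2 the remaining control is at 0 and gives none. The control means of these 2 circles, 0.286 and 0.539 per 100000, lie under the level of 0.587 named above. The circle of blocks 8 to 11 (chr2:61495455-61498913) had 6, 5, 37 and 75 counts and a ratio of 14.9 (18.0 or 12.7 without control 1 or 2). In all 3 both knockdowns lay above both controls. Amplified reads carry no molecular identifiers, so the true error is wider than such intervals.

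The lowest ratio among the 39 was that of blocks 11 to 12 (chr2:61493894-61495613), with 19, 18, 6 and 13 counts. The isoform listed first is a single block of 1720 nt that keeps the intron between the blocks, and the groups overlapped per 100000, with a ratio of 0.751 and a counting interval of 0.426 to 1.40 on the pooled counts. The next lowest was the circle of all 24 blocks (chr2:61481185-61537668, 3186 nt), with 3, 28, 9 and 7 counts and a ratio of 0.878. Control 2 alone was high, and the ratio was 0.495 without control 1 and 3.92 without control 2. The circle of blocks 3 to 4 came next.

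All 6 circles with a negative log2 fold change fell into 2 kinds, which were told apart after their values were seen. The first kind is the longest: the 4 detected circles whose first isoform has at least 24 blocks are all among the 6, with 25, 52, 12 and 15 counts together. Besides the circle of all 24 blocks, these are chr2:61481197-61534654 (3164 nt; 16, 7, 2 and 5 counts), chr2:61481197-61534678 (3184 nt; 6, 5, 1 and 2 counts) and chr2:61478479-61537715 (3721 nt; 0, 12, 0 and 1 counts). They reach nearly from end to end of the gene. Most of the counts of the last are in control 2, and of the 4 circles only chr2:61481197-61534678 had both knockdowns below both controls per 100000.

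The second kind lies at the intron between blocks 11 and 12, chr2:61494092-61495454, which is 1363 nt long. Beside the circle that retains it, a circle with exactly the ends of that intron had 5, 5, 1 and 3 counts. These 6 circles have between 13 and 56 counts each, and none was called in either direction in the fit of all 4 libraries.

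Back splices used a few blocks far more than others. As acceptor, block 17 led with 2881 counts in 7 circles, followed by block 2 with 1677 in 19 circles and block 3 with 1008 in 6. No detected circle started at block 6, 15, 22, 23 or 24. The share of block 17 was 29.1%, 29.4%, 37.3% and 35.7% of XPO1 counts, higher in both knockdowns. The share of block 3 was 22.9% and 21.7% against 8.62% and 8.45%, and that of block 2 was 20.8%, 21.9%, 19.97% and 19.3%. The share of block 2 was thus lower in both knockdowns too, at 19.6 ± 0.489% against 21.3 ± 0.740% in controls (SD, n = 2 each). That difference was smaller than for block 3. These are shares of an XPO1 total that was itself higher in the knockdowns. Per 100000 counts of the library, block 2 had 27.7, 61.3, 169 and 186, and block 3 had 30.5, 60.9, 72.9 and 81.7. Both were higher in both knockdowns on that scale.

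As donor, block 23 led with 1811 counts, followed by block 4 with 1324, block 22 with 1292, block 20 with 887 and block 16 with 749. The share of block 4 was 32.8%, 30.1%, 10.5% and 10.5%. The shares of blocks 23, 22 and 16 were higher in both knockdowns than in both controls, with 15.6%, 17.8%, 23.5% and 23.1% for block 23 and 10.3%, 13.98%, 16.6% and 16.2% for block 22. For block 16 they were 2.23%, 7.12%, 9.33% and 10.6%, and the controls differed the most there. Block 24 was the donor of the most circles, 14, but of only 275 counts.

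**Figure D4:**
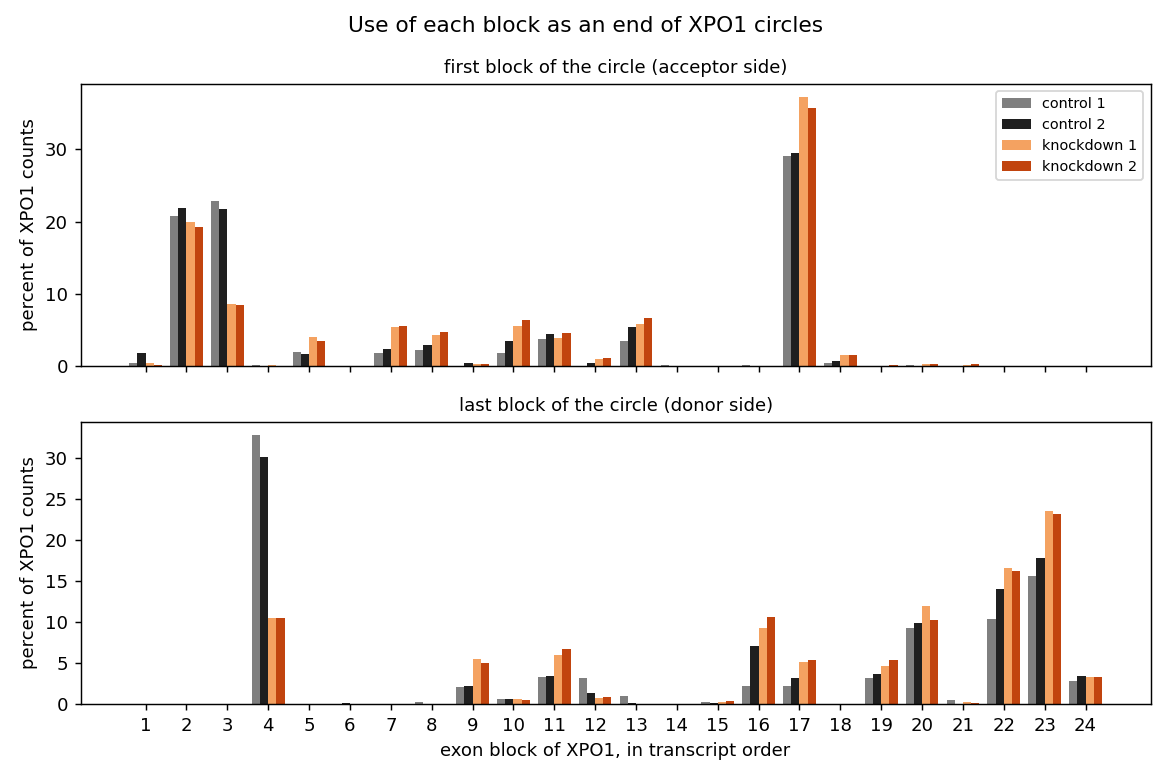
Percent of the XPO1 counts of each library in circles that start at each block (top, acceptor side) and end at each block (bottom, donor side), 4 bars per block in the order control 1, control 2, knockdown 1, knockdown 2. Bars of the controls are the higher ones at, among others, acceptor block 3 and donor block 4. Those of the knockdowns are higher at, among others, acceptor block 17 and donor blocks 16, 20, 22 and 23.

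The introns between the blocks are from 72 to 20300 nt long, with a median of 1258 nt, and the longest lies after block 4. Acceptor use went with the length of the intron before the block, with a Spearman's rho of 0.53 over the 23 introns. For donor use and the intron after the block, rho was 0.15. The 5 introns under 300 nt, a limit set after the values were seen, precede blocks with 35 acceptor counts in all, against 8079 for the blocks after the other 18. The blocks before those 5 introns had 42 donor counts, against 7844 for the blocks before the others. The introns belong to 1 gene and the same circles, so these are descriptions of XPO1 alone. The block with by far the most acceptor counts, block 17, follows an intron of 1258 nt, which is the median length.

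Over the whole set, the mean length of the XPO1 circles had no settled direction. Weighted by counts and taken from the isoform listed first, it was 1295, 1270, 1235 and 1225 nt, shorter in both knockdowns. The table gives no count per isoform, and with the shortest isoform listed for each circle the mean was 884, 937, 1003 and 1003 nt, longer in both knockdowns. With the longest isoform it was 2563, 2501, 2039 and 2038 nt. The mean number of blocks was 6.64, 7.48, 8.31 and 8.14 for the isoform listed first, and it was higher in both knockdowns for the shortest and the longest isoform too. The libraries held 75, 78, 97 and 111 different XPO1 circles. At an equal number of 629 XPO1 counts these were 75, 63.1, 67.6 and 69.1, and the knockdowns lay between the controls.

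Rows that name XPO1 together with another gene were rare, and there were 3. The one with the most counts, chr2:61460740-61488857, also names USP34, the neighbouring gene, and is of the intron type. It had 9, 6, 8 and 8 counts. Each of the others had 2 counts in all. The 3 antisense rows that name XPO1 and were left out had 5, 0, 3 and 7 counts.

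Of 11 genes of the same chromosome region, 9 were tested and none passed the adjusted threshold in edgeR, against 1.47% of all host genes called higher and 0.0338% lower. CCT4, PEX13 and REL had an unadjusted p under 0.05, and of all host genes 8.12% had one and were higher and 6.89% had one and were lower. USP34, a ubiquitin protease, had 631, 993, 514 and 633 counts and a log2 fold change of 0.42 ± 0.47 (SE; edgeR, adjusted p = 0.704). CCT4, a subunit of the cytosolic chaperonin, had 90, 204, 146 and 184 counts and 1.08 ± 0.46 (SE; edgeR, adjusted p = 0.307). PEX13, a part of the peroxisomal import machinery, had 152, 224, 25 and 31 counts and -1.82 ± 0.39 (SE; edgeR, adjusted p = 0.0556). These 3 have the most counts of the region, and the groups overlapped for USP34 and did not for CCT4 and PEX13. REL had 5, 5, 9 and 12 counts and 1.96 ± 0.82 (SE; edgeR, adjusted p = 0.302). Groups did not overlap for REL, B3GNT2 and FAM161A either, and they overlapped for PAPOLG, PUS10 and COMMD1. The share of all host genes without overlap is not given here, so nothing is read from this.

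By their pattern over the 4 libraries, 5 host genes were closest to XPO1 among 1237 with at least 200 counts. Likeness was the root mean square distance of log2(counts per 100000 + 0.5), centred on each gene's mean, and its median over those genes was 1.26. The closest was HAUS6, a subunit of the augmin complex of the spindle, at 0.032 with 42, 108, 164 and 253 counts. It was followed by ATAD5, which unloads the sliding clamp PCNA from DNA, at 0.072, WASHC4, a subunit of the WASH complex on endosomes, at 0.078, TRPM7, an ion channel with a kinase domain, at 0.082, and SSX2IP at 0.092. TRPM7 had the most counts of these, 142, 354, 500 and 765. A distance over 4 libraries describes the pattern and no more, and each of the 5 repeats the low value of control 1 as well as the difference between the groups.

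Other genes of nuclear transport also gave circular counts, among them importins, other exportins and the genes of the Ran cycle. Of a list of 42, 34 had at least 1 circular count and 27 were tested. At the adjusted threshold 0 passed in either direction in edgeR. The log2 fold change was positive in 14 and negative in 13, with a median of 0.04 against -0.27 over all host genes. These tallies depend on the scaling: with scaling to library size alone 8 were positive and 19 negative, with a median of -0.35 against -0.67. At an unadjusted p under 0.05 there were 3 higher and 3 lower of the 27, against 8.12% and 6.89% of all host genes, and these are named for that reason, after their values were seen. On the log2 scale the higher ones were CSE1L, the importin IPO7 at 1.71 ± 0.41 (SE), and NMD3, the adapter through which exportin 1 carries the large ribosomal subunit, at 1.45 ± 0.43 (SE). The lower ones were XPO5, which exports microRNA precursors, at -0.80 ± 0.35 (SE), and the importins IPO5 at -0.88 ± 0.39 (SE) and KPNA1 at -1.19 ± 0.40 (SE).

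CSE1L carries importin alpha back to the cytoplasm and had the most circular counts of the list. Its values were 200, 643, 661 and 948 counts, or 42.3, 116, 234 and 243 per 100000, and edgeR gave it 1.83 ± 0.60 (SE; adjusted p = 0.194) on the log2 scale. TNPO3, an importin of serine- and arginine-rich splicing factors, had 278, 452, 260 and 371 counts and 0.70 ± 0.44 (SE). XPOT, which exports tRNA, had 225, 476, 153 and 216 counts and -0.02 ± 0.46 (SE). Both knockdowns lay above both controls for CSE1L and TNPO3, and the groups overlapped for XPOT.

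By role, 3 of 7 tested exportins, 7 of 12 importins, 3 of 5 export partners and adapters and 1 of 3 genes of the Ran cycle had a positive log2 fold change in the TMM-scaled fit. The calls depended on the controls: 8 members passed without control 1, 4 in each direction, and 14 without control 2, 9 higher and 5 lower. In the same fits 15.7% and 19.6% of all host genes were called higher, and 11.3% and 18.8% lower. DESeq2 called CSE1L and IPO7 higher, against 2.62% of all host genes called higher and 0.135% lower.

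**Figure D5:**
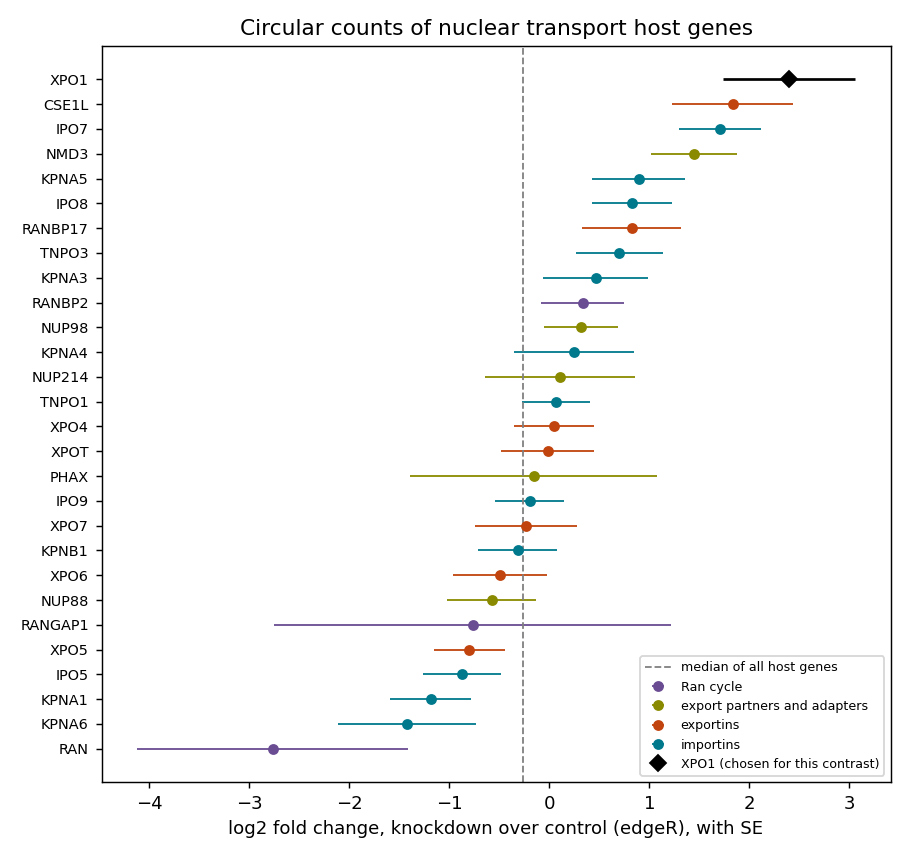
Log2 fold change of summed circular counts, knockdown over control, with its SE (edgeR), for the 27 tested host genes of nuclear transport, coloured by role, and for XPO1, which was chosen for this contrast. The dashed line is the median of all host genes at -0.27. XPO1 at 2.39 lies above all 27, of which CSE1L is the highest at 1.83.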

How the data were processed

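The authors deposited raw counts, whole numbers with 1 row per back-splice position, and the file's columns name CIRI-long as the caller. Per the submitters' processing notes, GRCh38.p14 and DESeq2 were used, with no role given. The aligner, filters and versions are not given in the sources used here. A second deposited table of scaled values was not used. Groups came from the sample titles.

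Counts per 100000 were computed from the counts. Ratios are of group means of these. Blocks are exon blocks listed in at least 10 XPO1 rows, plus the 5′ block of the circle of all blocks. Circles and host gene sums (rows not antisense that name 1 gene) with at least 10 counts were tested over the whole table with edgeR 4.0.16 (R 4.3.3, quasi-likelihood, TMM, Benjamini-Hochberg, threshold 0.05), after a test on simulated data. Alternatives were DESeq2 1.42.0, other scalings, filters, a replicate block and leaving out each library. The labels call the replicates biological but do not say if they are separate infections. The p-values set the difference between groups against the variation between these libraries. Whether that variation covers separate infections is not known. XPO1, the gene lists and the tests were chosen with earlier results of these data known. By rule, the 12 circles with the most counts, the 3 highest and 3 lowest ratios, the 5 most alike host genes, and the 3 list members with the most counts or past the threshold were named. Sequences of the back splices were not analysed here, for want of a genome. The number of libraries and reads amplified without molecular identifiers limit the precision.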

Additional observations from a re-analysis of the deposited data

How the results depend on the processing

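The log2 fold change of XPO1 as a host gene was positive in all settings: 2.08 to 2.41 under other scalings, filters, dispersion methods, gene sums and DESeq2, 2.55 with the replicate block, and 1.90 to 3.39 when a library was left out. The 0 XPO1 circles past the threshold became 35 of 61 in DESeq2, 19 of 145 with no filter, 40 of 55 with at least 5 counts in each of 2 libraries and 37 of 61 with the replicate block, all higher, and 0 to 53 without a library, but this is the contrast XPO1 was chosen for, so nothing is read from these counts. The shares of all circles called higher were 4.33%, 0.211%, 10.4% and 5.76% in the DESeq2, no-filter, 5-count and block fits. For the transport list, 0 became 2 in DESeq2 and 2 with no filter (CSE1L and IPO7 in each), 1 with the replicate block (IPO7), and 0 to 14 without a library. The cause of these changes was not tested. In the DESeq2, no-filter and block fits, 27, 34 and 27 list members were tested, and those past the threshold were all higher. Of all host genes, 2.62%, 2.32% and 4.33% were called higher in these fits, and 0.135%, 0.871% and 0.981% lower. Whether libraries with the same replicate number belong together is not known. Their deviations had r = 0.071 over 4944 circles, which cannot settle it with 2 libraries per group.

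The leading circle's share of XPO1 counts was 4.48 percentage points higher in knockdowns (3.77 to 5.19 without a library, 4.48 within same-numbered pairs). The count-weighted mean length differed by -52.2 nt (-64.9 to -39.5 without a library), but by 92.6 nt with the shortest isoform listed and -493 nt with the longest, alternatives added after the data were seen, so its direction depends on that choice. The share of circles ending at block 4, an alternative added after the data were seen, differed by -21.0 points (-22.3 to -19.7). The number of different circles at equal XPO1 counts had no settled direction: it differed by -0.75, by -6.68 to 5.18 without a library and by 2.28 for exon circles that name XPO1 alone. A circle with few counts is bounded by depth: 3 counts are between 0.539 and 1.06 per 100000.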
